A study of Mus musculus with 16 samples.

Results

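The 8 repair enzymes that act on the DNA lesions made by activation-induced deaminase (AID) were followed in antigen-binding B cells: Ung, Apex1, Apex2, Msh6, Pms2, Exo1, Xrcc1 and Polb. They were chosen by symbol, as members of base excision repair and mismatch repair, and all 8 of 8 were present among the 22675 genes that both deposited count tables share and passed the filter on low counts. RNA was sequenced with Smart-seq2 from pools of about 1000 sorted cells of C57BL/6 mouse spleen, taken 7 days after immunization with the hapten antigen NP-OVA in LPS and alum. The sorted cells bound NIP, were B220+CD38+ and lacked CD138, GL7, FAS and IgD, so the gate left out plasma cells and germinal center cells by surface staining.

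The libraries fell into 4 groups of 4. KOTP cells were tdTomato-positive and KOTN cells tdTomato-negative, both from mice with 2 copies of the Zfp318 allele ZSDAT (ZSDAT/ZSDAT). HetTP cells were tdTomato-positive and HetTN cells tdTomato-negative, both from ZSDAT/+ mice. Every group, the heterozygous ones included, also carried AID-Cre and the B1-8hi GFP allele. Separate animals are not stated for the libraries in the labels. The p-values therefore cover only how much these libraries vary, which may be technical. Each genotype was deposited as its own table, so a difference between the tables in handling or counting cannot be told apart from genotype.

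AID converts cytosine to uracil in immunoglobulin genes. The uracil can be removed by the glycosylase UNG, after which the apurinic/apyrimidinic endonucleases APEX1 and APEX2 cut the strand, DNA polymerase beta fills the gap and XRCC1 holds the repair complex together. Alternatively the U:G mismatch is bound by a complex that contains MSH6, PMS2 can nick the strand, and EXO1 removes a stretch that an error-prone polymerase refills. In mice these routes decide whether a lesion is restored, mutated or turned into the DNA breaks of class switching.

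The total count per library lay between 7748787 and 14325276 in the homozygous libraries and between 8099655 and 15742445 in the heterozygous ones. Zfp318 itself, the check of the genotype labels, averaged 1.86 ± 1.01 CPM (counts scaled to 1000000 per library) in KOTP and 113 ± 18.9 CPM in HetTP cells (SD, n = 4 each). It averaged 2.34 ± 2.16 CPM in KOTN and 118 ± 30.4 CPM in HetTN cells. The 2 tables differed in evenness. A homozygous library lacked counts for 1.52% to 2.34% of tested genes, and a heterozygous one for 7.02% to 13.6%. Variation among libraries of a group, as edgeR's biological coefficient of variation, came to 0.2 for the homozygous table and 0.845 for the heterozygous one. The test shares 1 estimate of the spread among all 16 libraries, so counts and calls from the compared libraries alone are given beside the results where they differ.

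The B cell label was checked against 7 markers, whose summed level was 13200 to 15600 CPM in KOTP, 13500 to 14400 CPM in KOTN, 9930 to 12600 CPM in HetTP and 10100 to 13000 CPM in HetTN libraries. Of 8 T cell markers, 5 had no count in any KOTP library, 5 had none in any KOTN library, 2 had none in any HetTP library and 2 had none in any HetTN library. Their sum was 1.61 to 3.25 CPM in KOTP, 1.55 to 3.34 CPM in KOTN, 123 to 546 CPM in HetTP and 159 to 449 CPM in HetTN libraries. The T cell receptor gene Trac was at 0 in 3 of 4 KOTP libraries and in all 4 KOTN libraries, against 122 to 464 CPM in HetTP and 99.4 to 421 CPM in HetTN libraries. Trac averaged 289 of a summed 314 CPM in HetTP and 286 of 308 CPM in HetTN cells. The other markers did not follow it. Cd3e was at 0, 0, 11.3 and 0 CPM in HetTP and 2.59, 5.67, 0 and 0.174 CPM in HetTN libraries. Cd3d was at 0.56, 0, 32.1 and 0.452 CPM in HetTP and 15.8, 23.2, 0 and 1.74 CPM in HetTN libraries. Cd4 and Cd28 had no count in any library. Of 12 myeloid markers, all had counts in KOTP, KOTN and HetTN cells and 1 had none in HetTP cells. Their sum was 70.9 to 105 CPM in KOTP, 99.7 to 140 CPM in KOTN, 132 to 674 CPM in HetTP and 479 to 1200 CPM in HetTN libraries. Of the 11 tested, 10 had a negative and 1 a positive log2 fold change in each comparison between genotypes. The positive one was Adgre1, which averaged 37.2 CPM in KOTP and 40.4 CPM in KOTN cells. From the compared libraries alone it had 2.01 in KOTP against HetTP and 1.81 in KOTN against HetTN cells, and neither was called. The 6 plasma cell markers summed to 74.8 to 109 CPM in KOTP, 103 to 210 CPM in KOTN, 260 to 359 CPM in HetTP and 263 to 842 CPM in HetTN libraries. The part of these other cell types in the differences between genotypes described below was not tested.

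Promoter sequence was matched for 5 members, and the 4 shown are those whose libraries did not overlap between the genotypes in at least 1 sorted population. Each runs 5′ to 3′ on the plus strand, 300 bases from RefSeq (GRCm38.p6): Ung at chr5:114130185-114130484, Apex1 at chr14:50924699-50924998, Xrcc1 at chr7:24546449-24546748 and Msh6 at chr17:87974800-87975099. Capitals mark the words searched on both strands, namely the GC box GGGCGG, the E-box CACGTG and 4 E2F words, TTTCCCGC, TTTGGCGC, TTTCGCGC and TTTGCCGC.
Ung promoter: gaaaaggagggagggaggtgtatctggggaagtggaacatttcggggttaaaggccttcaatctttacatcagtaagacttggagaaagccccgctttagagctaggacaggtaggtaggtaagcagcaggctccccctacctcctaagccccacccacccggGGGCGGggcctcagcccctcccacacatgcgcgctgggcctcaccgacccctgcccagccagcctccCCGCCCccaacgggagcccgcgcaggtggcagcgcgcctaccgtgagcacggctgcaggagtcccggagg
Apex1 promoter: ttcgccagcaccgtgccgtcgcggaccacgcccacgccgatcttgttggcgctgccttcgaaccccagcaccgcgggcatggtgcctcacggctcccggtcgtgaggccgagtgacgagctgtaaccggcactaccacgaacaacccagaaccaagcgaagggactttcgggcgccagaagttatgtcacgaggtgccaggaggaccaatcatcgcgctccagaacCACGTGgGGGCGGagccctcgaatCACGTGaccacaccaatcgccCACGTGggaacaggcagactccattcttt
Xrcc1 promoter: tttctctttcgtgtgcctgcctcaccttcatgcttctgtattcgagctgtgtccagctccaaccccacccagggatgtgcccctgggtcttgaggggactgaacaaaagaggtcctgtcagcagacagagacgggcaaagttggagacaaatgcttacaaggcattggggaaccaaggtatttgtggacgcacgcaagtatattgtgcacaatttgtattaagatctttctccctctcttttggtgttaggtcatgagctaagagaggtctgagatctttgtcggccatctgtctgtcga
Msh6 promoter: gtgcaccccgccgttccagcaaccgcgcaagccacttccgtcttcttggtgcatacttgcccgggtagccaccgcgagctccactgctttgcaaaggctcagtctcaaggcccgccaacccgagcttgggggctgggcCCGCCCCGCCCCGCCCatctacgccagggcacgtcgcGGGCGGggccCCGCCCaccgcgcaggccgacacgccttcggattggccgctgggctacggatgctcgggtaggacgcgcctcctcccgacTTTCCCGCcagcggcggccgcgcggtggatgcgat
The Msh6 window held 1 TTTCCCGC and 5 GC boxes, of which the 3 that stand in a row share a base with their neighbour. The Ung window held 2 GC boxes, the Apex1 window 3 CACGTG words and 1 GC box, and the Xrcc1 window none of the words searched. The Xrcc1 window lies inside the gene as GENCODE M21 annotates it, with a start at chr7:24546289. Sequence upstream of that start was therefore not searched for Xrcc1. Over 32851 promoters of the same length, 2.26% held any of the 4 E2F words, 7.15% held CACGTG and 35.7% held GGGCGG. Pms2 also had an entry, with 2 GC boxes. Apex2, Exo1 and Polb are named only.

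Levels between genes were compared as CPM per kilobase of coding sequence. In both homozygous groups the order began with Apex1, then Polb, then Xrcc1, and the libraries of these 3 did not overlap. In KOTP cells they stood at 129 ± 13.4, 66.9 ± 3.53 and 49.8 ± 3.61 CPM per kb (SD, n = 4). Msh6, Apex2, Pms2 and Ung followed with means between 10.3 and 8.01 CPM per kb and overlapping libraries, and Exo1 came last at 1.55 ± 1.10 CPM per kb without overlap with its neighbour. In KOTN cells Exo1 was again last, at 4.78 ± 1.51 CPM per kb, with libraries that overlapped those of Pms2. In HetTP cells Apex1 (185 ± 79.2), Xrcc1 (92.1 ± 18.8) and Polb (56.3 ± 9.59 CPM per kb) led, and Exo1 stood sixth at 15.5 ± 6.60 CPM per kb, its libraries overlapping those of both neighbours, Msh6 and Pms2. In HetTN cells Apex1 (208 ± 15.2), Xrcc1 (85.1 ± 11.9) and Polb (54.6 ± 24.1 CPM per kb) led again, the last of these overlapping Xrcc1, and Exo1 stood seventh at 8.85 ± 4.21 CPM per kb. The abasic site endonuclease Apex1 thus had the highest mean per kilobase of the 8 in every group, and its libraries overlapped those of the next enzyme only in HetTP cells. The sum of the 8 levels was 354 to 393 CPM in KOTP, 384 to 414 CPM in KOTN, 447 to 774 CPM in HetTP and 575 to 633 CPM in HetTN libraries.

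**Figure D1:**
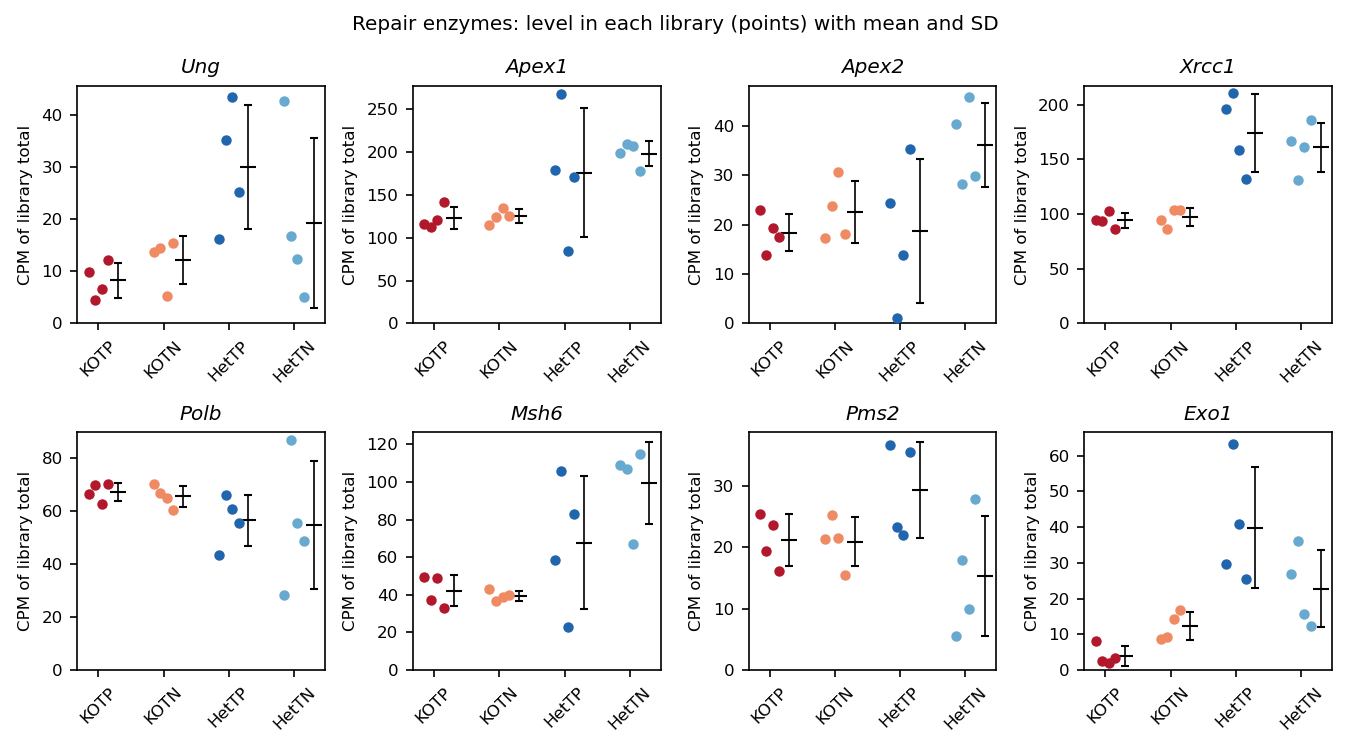
Level of each repair enzyme in every library, in CPM of the library total, with the group mean and SD beside the 4 points. Exo1 in KOTP cells (1.95 to 8.15 CPM) lies below every library of the other 3 groups, and Xrcc1 lies lower in all 8 homozygous libraries than in the 8 heterozygous ones.

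Between the genotypes, 2 of the 8 enzymes fell in tdTomato-positive cells (Exo1 and Xrcc1) and 2 fell in tdTomato-negative cells (Msh6 and Xrcc1), and none rose. Exo1 had the largest difference of the 8, with a level in KOTP cells 3.11 log2 units under that of HetTP cells. All 4 calls lie in the direction of lower expression in homozygous cells. On simulated counts with the spread of each table, the fit also called some unchanged genes in both comparisons between genotypes. Over all 10687 genes tested, 10.3% were called in KOTP against HetTP cells (5.06% higher, 5.22% lower) and 10.5% in KOTN against HetTN cells (5.61% higher, 4.88% lower), at an adjusted p under 0.05 (edgeR quasi-likelihood test, Benjamini-Hochberg adjustment, used throughout). With upper quartile scaling, higher calls made up 59.6% of the called genes in place of 49.2% in the tdTomato-positive comparison, and 63.5% in place of 53.5% in the tdTomato-negative one. The median log2 fold change was -0.37 over the 8 enzymes and -0.03 over all genes in tdTomato-positive cells. In tdTomato-negative cells it was -0.58 over the 8 enzymes and 0 over all genes. In pools of cells, fewer cells of a type and less RNA per cell cannot be told apart. The TMM scaling of the fit places KOTP/HetTP fold changes 0.23 log2 units above those of the plain CPM levels and KOTN/HetTN ones 0.09 above.

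Ung (ENSMUSG00000029591, GRCm38 chr5:114130386-114139323), the uracil DNA glycosylase that acts first on the lesion, was at 9.88, 4.50, 6.71 and 12.1 CPM in KOTP libraries and at 16.2, 35.3, 43.6 and 25.3 CPM in HetTP libraries. All 4 KOTP libraries were lower than all 4 HetTP libraries. With a log2 fold change of -1.63 ± 0.56 (SE) and an adjusted p of 0.0757 over all genes, it did not pass the test. It was called under other settings, with an adjusted p of 0.0358 from the compared libraries alone (11.7% of genes called), 0.0271 with DESeq2 and 0.0423 with scaling by library totals. KOTN libraries were at 13.7, 14.5, 5.37 and 15.4 CPM and HetTN libraries at 42.7, 16.8, 12.4 and 5.05 CPM. These groups overlapped, with the highest HetTN library at 42.7 CPM and the lowest at 5.05 CPM, and the log2 fold change was -0.51 ± 0.55 (adjusted p = 0.666).

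Apex1 (ENSMUSG00000035960, chr14:50924968-50927139), the main endonuclease for abasic sites, was at 116, 113, 121 and 142 CPM in KOTP libraries and 179, 268, 84.2 and 171 CPM in HetTP libraries. The third HetTP library was below all KOTP libraries, so the groups overlapped, and the log2 fold change was -0.28 ± 0.23 (adjusted p = 0.575). In tdTomato-negative cells Apex1 was at 115, 124, 135 and 126 CPM in KOTN libraries and at 199, 209, 207 and 178 CPM in HetTN libraries. All KOTN libraries lay below all HetTN libraries. Its log2 fold change of -0.58 ± 0.23 had an adjusted p of 0.115 and did not pass the test, while the compared libraries alone, where 7.3% of genes were called, gave an adjusted p of 0.0213.

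Apex2 (ENSMUSG00000025269, chrX:150519519-150589868), the second abasic endonuclease, was at 23.0, 13.9, 19.3 and 17.5 CPM in KOTP libraries and at 24.5, 1.12, 13.9 and 35.3 CPM in HetTP libraries. The second HetTP library, with 14 counts, was far below the other 3. The log2 fold change was 0.20 ± 0.57 (adjusted p = 0.918), and it was -0.19 without that library and -0.03 with scaling by library totals. KOTN libraries held 17.4, 23.8, 30.8 and 18.2 CPM and HetTN libraries 40.5, 28.2, 45.9 and 29.8 CPM. One KOTN library reached into the HetTN range, and the log2 fold change was -0.58 with a 95% interval of -1.78 to 0.62 (adjusted p = 0.626).

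Xrcc1 (ENSMUSG00000051768, chr7:24546289-24573440), the scaffold of single-strand break repair, fell in both sorted populations. It was at 94.3, 93.6, 103 and 86.1 CPM in KOTP libraries and at 196, 211, 159 and 132 CPM in HetTP libraries. It was at 95.1, 86.3, 104 and 104 CPM in KOTN libraries and at 167, 131, 161 and 186 CPM in HetTN libraries. No homozygous library reached the lowest heterozygous one, which held 131 CPM. The log2 fold change was -0.66 ± 0.16 in tdTomato-positive cells (adjusted p = 0.0116) and -0.64 ± 0.16 in tdTomato-negative cells (adjusted p = 0.0163). The 2 comparisons share no libraries, but both come from 1 fit with a shared spread and set the same 2 tables against each other. The difference between these genotype effects was -0.02, with a 95% interval of -0.50 to 0.46. The call was lost in the tdTomato-negative comparison without the second KOTN library (adjusted p = 0.0668). It was also lost in fits of the compared libraries alone when any 1 homozygous library was left out, with adjusted p of 0.0821, 0.0834, 0.0685 and 0.0892 without KOTP libraries 1 to 4, and 0.0935, 0.133, 0.0982 and 0.101 without KOTN libraries 1 to 4.

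Polb (ENSMUSG00000031536, chr8:22628126-22653435), the gap-filling polymerase of short-patch base excision repair, was at 66.4, 69.8, 62.6 and 70.2 CPM in KOTP libraries and at 43.6, 66.2, 60.7 and 55.7 CPM in HetTP libraries. It was at 70.1, 66.8, 65.1 and 60.3 CPM in KOTN libraries and at 28.4, 86.8, 55.7 and 48.7 CPM in HetTN libraries. The homozygous libraries were close to each other. In tdTomato-positive cells 3 of 4 HetTP libraries lay below every KOTP library and the other was within their range, while the HetTN libraries reached both above and below the KOTN ones. The log2 fold change was 0.47 ± 0.27 in tdTomato-positive cells (95% interval -0.09 to 1.04, adjusted p = 0.351) and 0.32 ± 0.27 in tdTomato-negative cells (-0.24 to 0.89, adjusted p = 0.543). Polb was the only one of the 8 with a positive value in both comparisons, and neither passed the test.

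Msh6 (ENSMUSG00000005370, chr17:87975062-87990892), the subunit that recognises the U:G mismatch, fell in tdTomato-negative cells. It was at 42.8, 36.5, 38.7 and 39.7 CPM in KOTN libraries and at 109, 107, 67.1 and 115 CPM in HetTN libraries, so every KOTN library was below every HetTN library. Its log2 fold change was -1.25 ± 0.33 (adjusted p = 0.0199). Without KOTN library 2, 3 or 4 the adjusted p was 0.0628, 0.0598 or 0.0574, with log2 fold changes of -1.21, -1.23 and -1.24. In tdTomato-positive cells it was at 49.3, 37.4, 48.9 and 32.9 CPM in KOTP libraries and at 58.7, 106, 23.0 and 83.1 CPM in HetTP libraries. The third HetTP library, low also for Apex1, was below all KOTP libraries, and the log2 fold change was -0.46 ± 0.32 (adjusted p = 0.496). The genotype effects in the 2 populations differed by 0.79 log2 units, with a 95% interval of -0.16 to 1.74 (adjusted p = 0.656).

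Pms2 (ENSMUSG00000079109, chr5:143909964-143933968), an endonuclease subunit of mismatch repair, was at 25.4, 19.3, 23.6 and 16.1 CPM in KOTP libraries and at 36.6, 23.2, 22.0 and 35.4 CPM in HetTP libraries. It was at 21.3, 25.3, 21.4 and 15.5 CPM in KOTN libraries and at 5.56, 17.9, 10.0 and 27.8 CPM in HetTN libraries. The groups overlapped in both populations, and the log2 fold change was -0.25 ± 0.42 (adjusted p = 0.852) in tdTomato-positive and 0.50 ± 0.43 (adjusted p = 0.556) in tdTomato-negative cells. Its coding sequence overlaps that of Gm42421 on the same strand over 363 bases, so reads there could belong to either gene.

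Exo1 (ENSMUSG00000039748, chr1:175880581-175913489), the exonuclease that opens the gap in mismatch repair, was at 8.15, 2.63, 1.95 and 3.21 CPM in KOTP libraries and at 29.7, 63.4, 40.8 and 25.6 CPM in HetTP libraries. The KOTP values rest on 66, 21, 18 and 46 counts, and the highest of them is below the lowest HetTP library. The log2 fold change was -3.11 ± 0.52, with a 95% interval of -4.19 to -2.02 (adjusted p = 0.000636). It passed the test in all 27 alternative analyses of this comparison, with values between -3.69 and -2.79. In tdTomato-negative cells Exo1 was at 8.78, 9.36, 14.2 and 16.8 CPM in KOTN libraries, from 68, 84, 132 and 144 counts, and at 26.8, 36.0, 15.8 and 12.3 CPM in HetTN libraries. These groups overlapped, with 2 HetTN libraries within the KOTN range, and the log2 fold change was -0.79 ± 0.48 (adjusted p = 0.355). The difference of the genotype effect between the populations was -2.31 ± 0.68 log2 units (95% interval -3.75 to -0.88, unadjusted p = 0.00321), with an adjusted p of 0.214 over all genes, where 0.122% of genes were called. It was not called in any alternative, whose adjusted p ran from 0.0514 to 0.452.

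Of the 8 enzymes, 3 had all KOTP libraries below all HetTP libraries (Ung, Xrcc1 and Exo1), against 13.8% of all genes, and 3 had all KOTN libraries below all HetTN libraries (Apex1, Xrcc1 and Msh6), against 8.5% of all genes. None had all homozygous libraries above all heterozygous ones, which held for 7.06% of all genes in tdTomato-positive and 10.4% in tdTomato-negative cells.

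**Figure D2:**
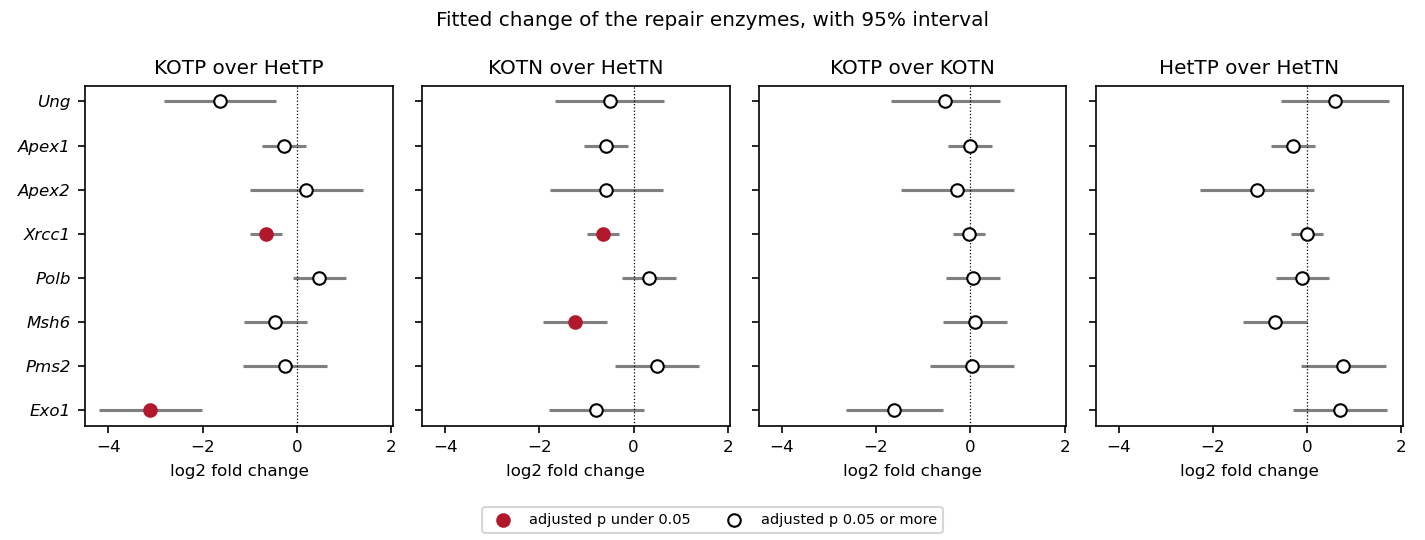
Fitted log2 fold change of each enzyme with its 95% interval in 4 comparisons, filled where the adjusted p was under 0.05. Filled points appear for Xrcc1 and Exo1 in KOTP over HetTP (-0.66 and -3.11) and for Xrcc1 and Msh6 in KOTN over HetTN (-0.64 and -1.25).

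Within a genotype, tdTomato-positive and tdTomato-negative cells were compared next. In homozygous cells 0 of the 8 enzymes were called, against 0.0187% of all genes (2 genes). At an unadjusted p under 0.05, 1 enzyme (Exo1) and 167 genes (1.56%) passed. For Exo1 all 4 KOTP libraries (1.95 to 8.15 CPM) lay below all 4 KOTN libraries (8.78 to 16.8 CPM). Its log2 fold change was -1.61 ± 0.49 (unadjusted p = 0.00418, adjusted p = 1). When the spread was estimated from the 8 homozygous libraries alone, the log2 fold change of Exo1 was -1.60 ± 0.37 with an adjusted p of 0.0147, and 2.37% of genes were called. It was -1.82 with an adjusted p of 0.0064 in a voom fit of all libraries with sample weights, which called 338 genes. With DESeq2 on all 16 libraries 11 genes were called and Exo1 was not among them. Leaving 1 library out of the fit of the homozygous libraries alone kept the Exo1 call in 4 of 8 cases, with values between -2.17 and -1.38. It held without KOTP library 1 (-2.17, adjusted p = 0.000567) or 3 (0.0443) and without KOTN library 1 (0.00544) or 2 (0.031), and it was lost without KOTP library 2 (0.0651) or 4 (0.0672) and without KOTN library 3 (0.0529) or 4 (0.0865). The comparisons KOTP against HetTP and KOTP against KOTN share the KOTP libraries. Every KOTP library lay below every KOTN library for 4.51% of all genes and for 1 of the 8 enzymes, Exo1.

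The other 7 enzymes overlapped between KOTP and KOTN libraries. Apex1 averaged 123 ± 12.8 CPM in KOTP and 125 ± 8.23 CPM in KOTN cells (SD, n = 4 each), with a log2 fold change of 0 and a 95% interval of -0.47 to 0.47. Xrcc1 averaged 94.2 ± 6.83 CPM in KOTP and 97.3 ± 8.39 CPM in KOTN cells, with an interval of -0.37 to 0.31. Polb averaged 67.2 ± 3.54 CPM in KOTP and 65.6 ± 4.08 CPM in KOTN cells, with an interval of -0.51 to 0.62. Msh6 averaged 42.1 ± 8.26 CPM in KOTP and 39.4 ± 2.63 CPM in KOTN cells, with an interval of -0.57 to 0.78. Pms2 averaged 21.1 ± 4.21 CPM in KOTP and 20.9 ± 4.01 CPM in KOTN cells, with an interval of -0.86 to 0.92. The intervals were wider for Apex2, at -1.48 to 0.92, and for Ung, at -1.69 to 0.63. Ung averaged 8.29 ± 3.35 CPM in KOTP and 12.2 ± 4.63 CPM in KOTN cells, and Apex2 18.4 ± 3.78 CPM in KOTP and 22.6 ± 6.19 CPM in KOTN cells.

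In heterozygous cells 0 of the 8 enzymes were called with edgeR, against 1.07% of all genes (114 genes). On simulated counts with the spread of each table, this fit called more unchanged genes here than in the other comparisons. The libraries of all 8 overlapped, as did those of all but 4.7% of genes. At an unadjusted p under 0.05, 1 enzyme passed, Msh6, with 1731 genes (16.2%). It averaged 67.7 ± 35.5 CPM in HetTP and 99.5 ± 21.9 CPM in HetTN cells (log2 fold change -0.68 ± 0.32, unadjusted p = 0.0472 and adjusted p = 0.297 in edgeR), and the heterozygous libraries alone gave it an unadjusted p of 0.116. Exo1 averaged 39.9 ± 16.9 CPM in HetTP and 22.7 ± 10.8 CPM in HetTN cells, a log2 fold change of 0.70 ± 0.47 (adjusted p = 0.522), whose sign is opposite to that in homozygous cells. Ung averaged 30.1 ± 11.9 CPM in HetTP and 19.3 ± 16.4 CPM in HetTN cells (0.59 ± 0.55, adjusted p = 0.676). Apex2 averaged 18.7 ± 14.6 CPM in HetTP and 36.1 ± 8.53 CPM in HetTN cells (-1.07 ± 0.58, adjusted p = 0.383). Pms2 averaged 29.3 ± 7.77 CPM in HetTP and 15.3 ± 9.77 CPM in HetTN cells (0.77 ± 0.43, adjusted p = 0.395). Apex1, Xrcc1 and Polb had log2 fold changes of -0.30, -0.01 and -0.10. The heterozygous libraries alone called 0 genes with edgeR and 38 with DESeq2.

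The remaining genes of the 2 repair pathways were counted in the same way. Of the 19 listed genes of base excision repair outside the 8, Neil2 did not pass the filter. Of the 18 tested, 0 rose and 6 fell in KOTP against HetTP cells (33.3%, against 10.3% of all genes), with a median log2 fold change of -0.57. Those with the smallest p were Hmces, which shields abasic sites in single-stranded DNA, Neil1, a glycosylase for oxidised bases, Lig1, the replicative DNA ligase, and Parp1, a sensor of strand breaks. Hmces was at 43.6, 43.7, 37.8 and 42.3 CPM in KOTP libraries and at 235, 427, 271 and 216 CPM in HetTP libraries, with a log2 fold change of -2.55 ± 0.20 (adjusted p = 2.53e-07). Neil1, Lig1 and Parp1 had log2 fold changes of -2.09, -2.12 and -0.86. In KOTN against HetTN cells 1 rose and 5 fell (33.3%, against 10.5% of all genes), and the median was -0.31. From the compared libraries alone 0 rose and 4 fell, a share of 22.2% against 7.3% of all genes. Hmces, Lig1, Neil1 and Parp1 again had the smallest p, with log2 fold changes of -1.83, -1.54, -1.06 and -0.75.

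Of 17 tested genes of mismatch repair and its resynthesis step (of 18 listed; Pold4 did not pass the filter), 0 rose and 7 fell in KOTP against HetTP cells, with a median of -0.73. In KOTN against HetTN cells 0 rose and 5 fell, with a median of -0.41. These are shares of 41.2% and 29.4%, against 10.3% and 10.5% of all genes. From the compared libraries alone 6 and 4 fell, shares of 35.3% and 23.5% against 11.7% and 7.3% of all genes. The sliding clamp Pcna had a log2 fold change of -1.0 ± 0.19 in tdTomato-positive cells (adjusted p = 0.0018) and -1.13 ± 0.19 in tdTomato-negative cells (adjusted p = 0.000853). The clamp loader subunit Rfc3 had -1.38 and -0.80 in the same 2 comparisons (adjusted p = 0.0942 for the tdTomato-negative one from the compared libraries alone, so its call was lost there), and Pold1, the catalytic subunit of polymerase delta, had -0.81 and -0.93. Pold2, its accessory subunit, had -1.05 in tdTomato-positive cells, and Rfc1, the large clamp loader subunit, had -1.08 in tdTomato-negative cells. Pcna, the clamp loader and polymerase delta also serve genome replication.

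Of 10 tested genes of translesion synthesis, 0 rose and 2 fell in tdTomato-positive cells, and 0 rose and 1 fell in tdTomato-negative cells, shares of 20% and 10% against the 10.3% and 10.5% of all genes called. Polh, polymerase eta, which makes most mutations at A:T pairs in hypermutation, was at 4.82, 6.76, 8.33 and 9.49 CPM in KOTP libraries and at 31.7, 20.3, 35.5 and 46.9 CPM in HetTP libraries. All KOTP libraries were lower, and the log2 fold change was -1.96 ± 0.42 (adjusted p = 0.0049). In tdTomato-negative cells it was -1.80 ± 0.42 (adjusted p = 0.0108), from 6.45, 3.56, 7.09 and 9.0 CPM in KOTN libraries and 38.4, 25.0, 16.5 and 18.4 CPM in HetTN libraries. The ubiquitin ligase Rad18 fell in tdTomato-positive cells (-1.16, adjusted p = 0.0332). Of 18 tested genes of end joining and break signalling, 1 rose and 3 fell in KOTP against HetTP cells and 0 rose and 1 fell in KOTN against HetTN cells, shares of 22.2% and 5.56%. The kinase subunit Prkdc was the one that rose (0.92, adjusted p = 0.0308), and the histone H2afx (-1.54), the break signalling adaptor Paxip1 (-1.28) and the end protection factor Rif1 (-0.78) fell. From the compared libraries alone H2afx kept its call (adjusted p = 0.000619), and Prkdc (0.0551), Paxip1 (0.0777) and Rif1 (0.08) did not. Paxip1 was also the one that fell in tdTomato-negative cells (-1.49, adjusted p = 0.00939).

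Among genes that bear on the supply of uracil in DNA, Dut, which removes dUTP, fell in tdTomato-positive cells (-1.28, adjusted p = 0.00108) and in tdTomato-negative cells (-0.93, adjusted p = 0.0136). Samhd1, which removes deoxynucleotides, rose in tdTomato-positive cells (0.59, adjusted p = 0.00653).

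**Figure D3:**
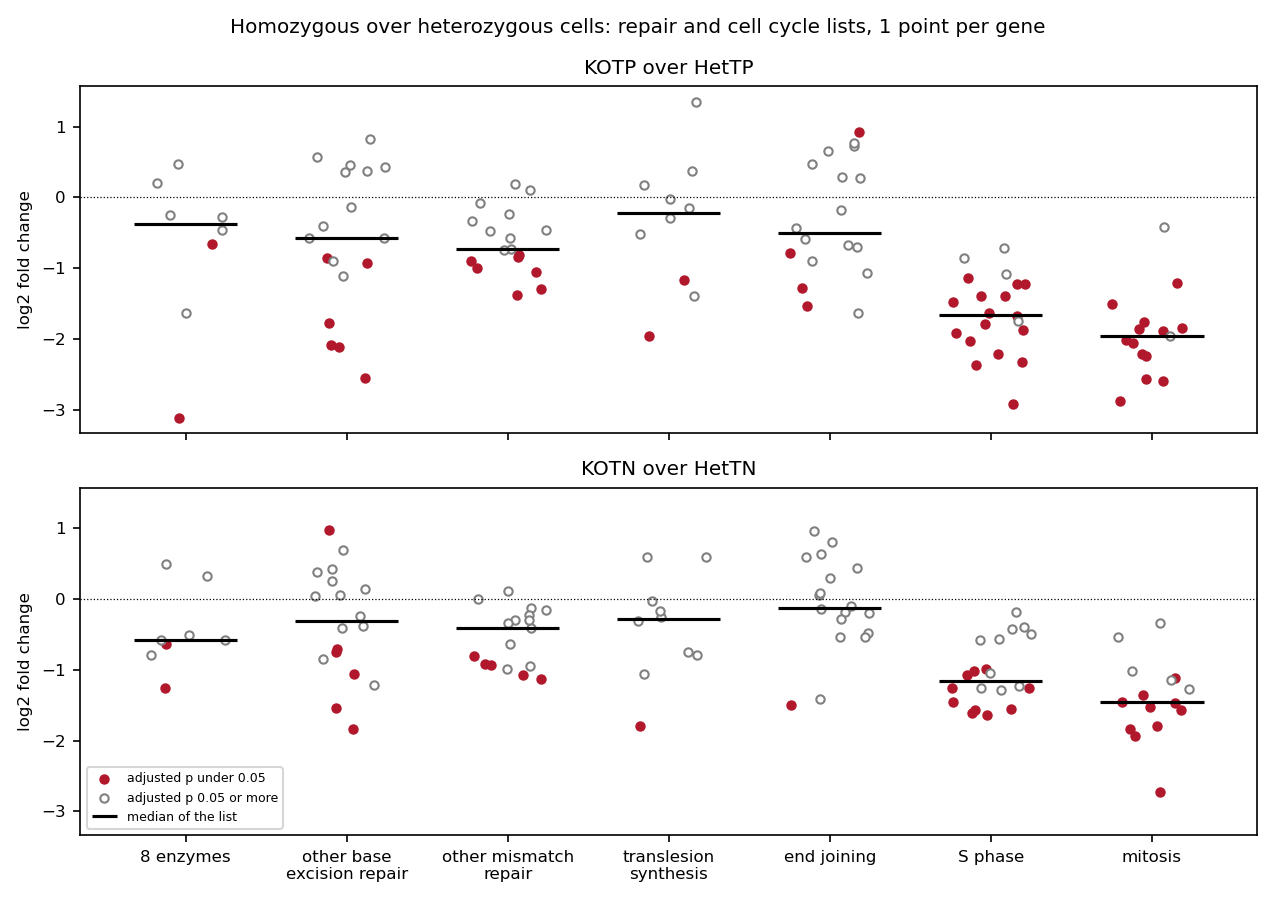
Log2 fold change of every tested gene of the 8 enzymes, 4 further repair lists, S phase genes and mitosis genes, in KOTP over HetTP (top) and KOTN over HetTN (bottom), filled where the adjusted p was under 0.05, with the list median as a bar. The medians of the S phase and mitosis lists (-1.65 and -1.96 in the top panel, -1.16 and -1.45 in the bottom panel) lie further below 0 than that of the 8 enzymes (-0.37 and -0.58).

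Genes of DNA replication and division were counted in the same comparisons between genotypes. Of 20 S phase genes, 0 rose and 16 fell in KOTP against HetTP cells, and 0 rose and 10 fell in KOTN against HetTN cells. Of 15 mitosis genes, 0 rose and 13 fell in tdTomato-positive cells and 0 rose and 10 fell in tdTomato-negative cells. These are shares of 80% and 50% for S phase and 86.7% and 66.7% for mitosis genes, against 10.3% and 10.5% of all genes. From the compared libraries alone 14 and 9 of the S phase genes (70% and 45%) and 12 and 10 of the mitosis genes (80% and 66.7%) fell. Over all genes 11.7% and 7.3% were called in those fits. The summed level of the S phase genes was 559 to 644 CPM in KOTP, 782 to 982 CPM in KOTN, 1760 to 2580 CPM in HetTP and 1610 to 2320 CPM in HetTN libraries. The mitosis sum was 312 to 547 CPM in KOTP, 533 to 718 CPM in KOTN, 869 to 2590 CPM in HetTP and 1140 to 2410 CPM in HetTN libraries. The library with the highest Exo1 level had the highest S phase sum of its group in KOTP (644 CPM), KOTN (982 CPM) and HetTP (2580 CPM). In HetTN it had the lowest (1610 CPM). Its mitosis sum was the highest of the group, at 547 CPM in KOTP, 718 CPM in KOTN, 2590 CPM in HetTP and 2410 CPM in HetTN. The HetTP library with the lowest Exo1 level (25.6 CPM) had an S phase sum of 2310 CPM, above those of HetTP libraries 1 and 3. The 8 germinal center markers summed to 209 to 285 CPM in KOTP, 324 to 452 CPM in KOTN, 539 to 982 CPM in HetTP and 611 to 1060 CPM in HetTN libraries. The part of the share of dividing cells in the levels of the 8 enzymes was not tested.

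From the homozygous libraries alone, the base excision repair genes Neil1 (-0.85 ± 0.12, adjusted p = 6.11e-05), Lig1 (-0.84 ± 0.15, adjusted p = 0.00175) and Hmces (-0.63 ± 0.13, adjusted p = 0.00583) were lower in KOTP than in KOTN cells, beside Exo1. In that fit 7 of 20 S phase genes (35%) and 5 of 15 mitosis genes (33.3%) were lower and none higher. Of 18 end joining genes 1 was lower (H2afx, a share of 5.56%), and Samhd1 was higher (0.32, adjusted p = 0.0296). Over all genes 2.37% were called there. None of the genes of these lists was called in KOTP against KOTN cells in the 16-library fit.

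**Figure D4:**
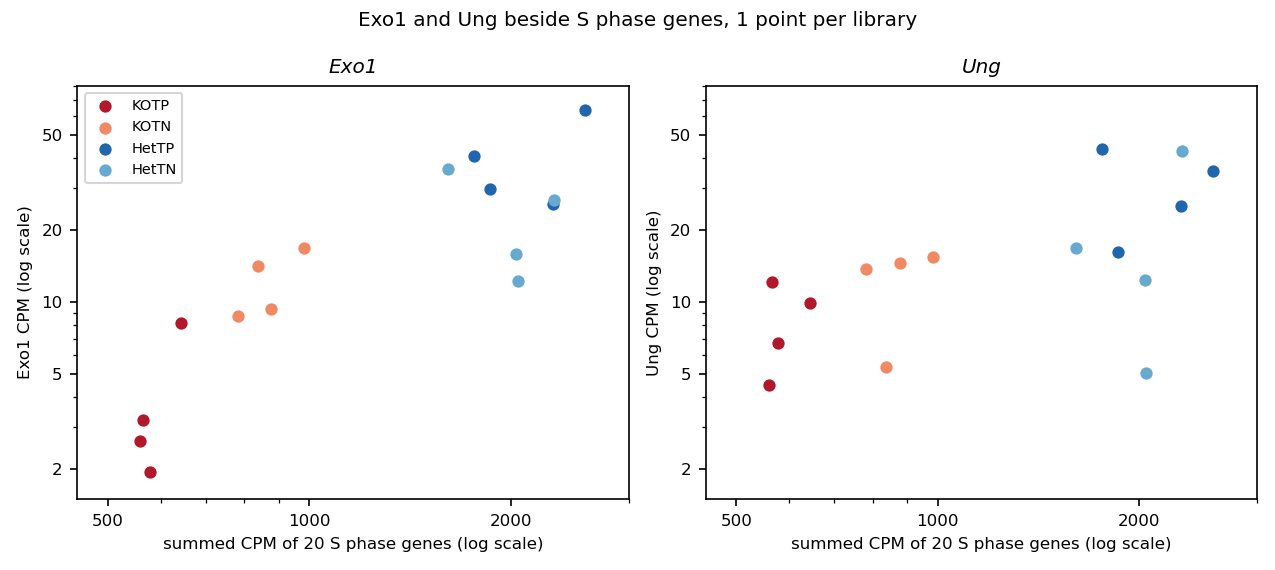
CPM of Exo1 (left) and Ung (right) against the summed CPM of 20 S phase genes, 1 point per library, on log axes. For Exo1 the KOTP libraries sit lowest on both axes (1.95 to 8.15 CPM, S phase sum 559 to 644 CPM), the KOTN libraries next, and the heterozygous libraries highest on the S phase axis. Ung levels overlap between KOTP, KOTN and HetTN libraries.

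The genes whose log2(CPM + 1) followed a member most closely over the 16 libraries were listed as a description, and libraries of 1 table share depth and handling. For Exo1 they were Rassf6, Asf1b and Stmn1, with Pearson's r of 0.94, 0.93 and 0.93 over all 16 libraries, 0.96, 0.90 and 0.93 over the 8 homozygous and 0.78, 0.73 and 0.69 over the 8 heterozygous ones. For Xrcc1 they were Usp1, Ighv1-81 and Hmces, with r between 0.94 and 0.95 over 16 libraries, 0.40 to 0.70 over the homozygous and 0.63 to 0.81 over the heterozygous ones. For Ung they were Aars, Mcm10 and Med1, with r of 0.88, 0.86 and 0.86, and only Aars stayed above 0.80 in both tables (0.88 homozygous, 0.82 heterozygous). For Polb they were Bola2, Tma7 and Rpl14, with r of 0.94, 0.94 and 0.92. These were 0.46 to 0.70 over the homozygous and 0.93 to 0.99 over the heterozygous libraries. For Pms2 they were H2-Q1, Kansl3 and Dtwd2, with r of 0.91, 0.90 and 0.88. These were 0.42 to 0.65 over the homozygous and 0.91 to 0.95 over the heterozygous libraries. For Apex2 they were Akap11, Ovca2 and Zfp26, with r of 0.93, 0.90 and 0.89, of which Akap11 had 0.97 over the heterozygous and 0.30 over the homozygous libraries. For Apex1 they were Edem1, Sdhb and Msh6, and for Msh6 they were Ss18, Edem1 and Apex1. Edem1 had r of 0 with Apex1 and -0.05 with Msh6 over the homozygous libraries, against 0.98 and 0.89 over the heterozygous ones. Apex1 and Msh6, the only pair of members among each other's 3 closest genes, had r of 0.87 over 16 libraries, which split into -0.60 over the homozygous and 0.86 over the heterozygous libraries. Ung and Exo1 had r of 0.73 over 16 libraries, 0.44 over the homozygous and 0.76 over the heterozygous ones.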

How the data were processed

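The submitters' processing notes name Trim Galore, STAR 2.2.0, featureCounts and the build mm10. The strand setting and the handling of read pairs and multiple matches are not given in the sources used here. The authors deposited 1 table per genotype, and its whole-number counts, which the file headers call CDS counts, were used. The 22680 entries of each table were joined by symbol, without 4 entries of duplicated names and 1 name with no partner, and 88.8% of the 22675 genes matched GENCODE M21 (GRCm38), from which positions and coding lengths come.

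Levels are CPM of the library total. The test was edgeR's (4.0.16, under R 4.3.3 with limma 3.58.1): TMM scaling, filterByExpr, the robust quasi-likelihood test on the means of 4 groups with 12 residual degrees of freedom, and Benjamini-Hochberg adjustment over 10687 genes, called under 0.05. SE is the log2 fold change divided by the root of F. Alternatives changed the scaling (RLE, upper quartile, library totals), the filter and the tool (DESeq2 1.42.0, voom with sample weights). They also changed the block and the libraries fitted, and left out each library in turn. On simulated counts with the spread of each table, the test recovered the direction and size of known changes but missed many of them. It also called some unchanged genes, most of them in HetTP against HetTN. Others were called in KOTP against HetTP, in KOTN against HetTN and for the difference of effects, and none in KOTP against KOTN. Text names all 8 enzymes, Zfp318, per repair list up to 4 other genes past the threshold by p, and the 3 closest genes by r. Members and lists were chosen with earlier results of these data known. Some alternatives (DESeq2, voom and left-out libraries in fits of the compared libraries alone) were added after seeing the data. Reads carried no molecular identifiers, so depth gives counting error only. Values of some listed genes are not reported here.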

Additional observations from a re-analysis of the deposited data

How the results depend on the processing

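The calls of Exo1 in KOTP against HetTP and of Zfp318 in both genotype comparisons held in all 27 alternatives of each. Xrcc1 kept its call in 23 of 27 in tdTomato-positive and 22 of 27 in tdTomato-negative cells, Msh6 in 24 of 27 in tdTomato-negative cells. Ung in KOTP against HetTP was called in 8 of 27, Apex1 in KOTN against HetTN in 7 of 27 and Exo1 in KOTP against KOTN in 8 of 27. The cause of each change was not tested.

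The counts of genes called differed between settings. In KOTP against KOTN the count was 1 with library totals, 0 with no filter, 11 with DESeq2, 338 with voom, 0 with the replicate block, and in the compared libraries alone 236 (edgeR), 358 (DESeq2) and 358 (voom). The voom fit and these 3 fits alone each called 1 enzyme, Exo1. In HetTP against HetTN it was 709 with DESeq2, 4 with voom, 23 with the block, and in the compared libraries alone 0 (edgeR), 38 (DESeq2) and 0 (voom). For the difference of effects it was 6 with library totals, 194 with DESeq2, 7 with voom and 2 with the block. It was 724 in KOTN against HetTN compared alone, and 1681 in KOTP against HetTP with DESeq2 alone.

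Leaving out 1 library gave between 630 and 1475 genes and 1 to 3 enzymes in KOTP against HetTP, 238 to 1280 genes and 0 to 3 enzymes in KOTN against HetTN, 0 to 396 genes and 0 to 1 enzymes in KOTP against KOTN, 0 to 488 genes in HetTP against HetTN and 1 to 41 genes for the difference. Same-numbered libraries deviated with correlations of -0.029 to 0.096, so the numbers were not shown to pair libraries, and the replicate block changed no call of an enzyme.

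Some values that were not called changed sign. In KOTP against KOTN, Apex1 was 0.02 with upper quartile scaling and 0.01 with edgeR and DESeq2 alone. Apex2 in KOTP against HetTP was -0.03 with library totals. In HetTP against HetTN, library totals gave 0.11 for Xrcc1 and 0.04 for Polb, and the block 0.01 for Polb. The difference of effects was 0 for Xrcc1 with upper quartile scaling and 0.05 with voom, and 0 for Polb with library totals. Leaving out libraries turned the sign of Apex1 in KOTP against KOTN (-0.10 to 0.05) and in KOTP against HetTP (-0.51 to 0.01), Apex2 in KOTP against HetTP (-0.19 to 0.71), Pms2 in KOTP against KOTN (-0.10 to 0.14), Ung in KOTN against HetTN (-0.82 to 0.15), Xrcc1 in KOTP against KOTN (-0.08 to 0.02), in HetTP against HetTN (-0.11 to 0.10) and in the difference of effects (-0.13 to 0.08), and Polb in HetTP against HetTN (-0.33 to 0.23) and in the difference (-0.17 to 0.38).

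Polb in KOTP cells was 71.6 CPM after TMM scaling, against 67.2 CPM of the library total. Depth limits Exo1 in KOTP cells, where a library held as few as 18 counts.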
